A study of Mus musculus with 2 samples.

Results

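The collagen genes were examined here as a view of the connective tissue of the spleen. They are the 44 protein-coding mouse genes of the GENCODE M21 annotation whose symbol has the form Col, a number, a, a number, out of 21938 protein-coding genes on chromosomes 1 to 19, X and Y. By the textbook structure of their products they were set in 3 classes: 11 fibrillar collagens, 6 basement membrane collagens (type IV) and 27 other collagens. Open chromatin was measured by DNase-seq, in which the enzyme DNase I cuts accessible DNA and the cut ends are sequenced, in whole spleen from 2 male B6CASTF1/J mice aged 2 months. B6CASTF1/J mice are first-generation hybrids of the strains C57BL/6J and CAST/EiJ. Each library has its own biosample and biological replicate number, after which the mice are called animal 1 and animal 2. Both belong to a single group, with no treatment, mutation or second condition, so no contrast exists and a mean ± SD with n = 2 describes these libraries only.

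Collagens are proteins of 3 chains wound into a triple helix. Fibrillar collagens form the tensile fibres of connective tissue, type IV collagens form the sheet-like network under endothelium and epithelium, and the others decorate fibrils, form beaded filaments or cross the cell membrane. In spleen, collagen is made mainly by the fibroblastic reticular cells, the smooth muscle and fibroblasts of capsule and trabeculae, and the endothelium, while lymphocytes make up most of the nuclei. A peak is a deposited interval of concentrated cuts, and its height is the authors' signal of cut density. A promoter peak overlapped the window of 1 kb either side of an annotated transcription start site (TSS) of the gene, and the strongest such peak gave the gene's promoter height. In a whole organ, fewer cells with an open site and less opening in each cell cannot be told apart.

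Collagen promoters were open less often than those of the genome at large, and weakly where they were open. In animal 1, 19 of 44 collagen genes had a promoter peak, against 61.4% of all protein-coding genes. In animal 2, 22 of 44 did so, against 62.6% of all genes. The 2 animals had 15 of these in common (34.1% of 44), against 59.8% of all genes. A further 11 (25%) had it in 1 animal only, against 4.42% of all genes, and 18 (40.9%) in neither, against 35.8% of all genes. With only the most 5′ TSS of each gene counted, 8 of 44 collagen genes (18.2%) were open in both animals, against 55.0% of all genes. In the authors' shorter peak list 10 of 44 (22.7%) were open in both, against 56.0% of all genes. The median mean height of the 15 collagen genes open in both animals was 0.697, against 6.42 for the 13116 of all genes open in both. None of the 15 stood above the median of all open genes, and their percentiles among those genes ran from 0.320 to 29.3. A mean height under 1 was found for 9 of the 15 collagen genes and for 11.6% of all open genes.

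Each class held open and closed genes, and the numbers per class are small. Of all genes 59.8% were open in both animals, with a median mean height of 6.42. Of the fibrillar collagens 3 of 11 were open in both animals (Col1a1, Col1a2 and Col27a1), with a median mean height of 2.94. Of the basement membrane collagens 3 of 6 were open in both (Col4a1, Col4a2 and Col4a5), with a median of 0.488. Of the other collagens 9 of 27 were open in both (Col6a2, Col6a4, Col13a1, Col14a1, Col15a1, Col16a1, Col23a1, Col25a1 and Col26a1), with a median of 0.763. A peak in 1 animal only was most frequent in the fibrillar class, at 5 of 11, against 0 of 6 basement membrane and 6 of 27 other collagens. Of all genes 4.42% had a peak in 1 animal only.

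**Figure D1:**
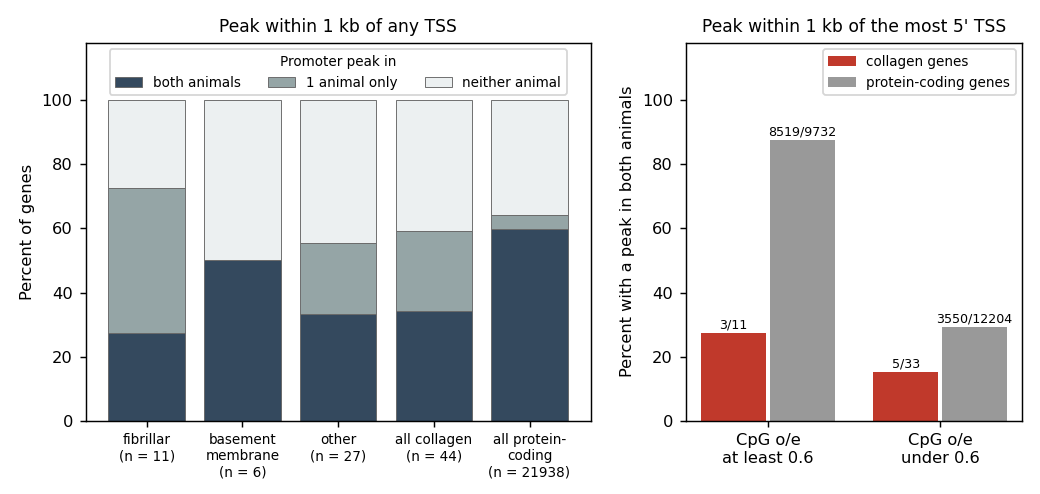
Left, stacked bars give the percent of genes with a promoter peak in both animals, in 1 animal only or in neither, for the fibrillar (n = 11), basement membrane (n = 6) and other (n = 27) collagens, all 44 collagen genes and all 21938 protein-coding genes. Right, bars give the percent of genes that had a peak near (1 kb) the most 5′ TSS in both animals, for collagen genes and all protein-coding genes, split into promoters with a CpG observed over expected ratio of at least 0.6 and those under 0.6. Among CpG-rich promoters 3 of 11 collagen genes were open, against 87.5% of all genes.

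The fibrillar collagens held both the highest promoter peaks of the family and many of its lowest. Col27a1, which encodes a fibrillar collagen of cartilage, had a promoter height of 2.81 (animal 1) and 3.75 (animal 2), which averaged 3.28 ± 0.669 (SD, n = 2). Col1a1, the main chain of type I collagen and so of most tensile fibres, had 2.40 (animal 1) and 3.48 (animal 2), which averaged 2.94 ± 0.766 (SD, n = 2). Both genes were higher in animal 2, and within the 1 kb window no other collagen gene reached these heights in the same animal. Just beyond that window, in animal 2, peaks of Col13a1 and Col26a1 were also above the Col1a1 peak. The Col1a1 peak was centred 966 bp (animal 1) and 976 bp (animal 2) downstream of the TSS, in an intron, 496 and 486 bp before the start of a shorter processed transcript. The peak across the Col1a1 TSS itself had a height of only 0.444 in animal 1 and 0.536 in animal 2. A further intronic Col1a1 peak, 3246 and 3256 bp downstream of the TSS, had 0.960 and 1.81. The Col27a1 peak was centred 1326 and 1316 bp downstream of the most 5′ TSS, but that TSS belongs to a transcript with a retained intron, and the peak lay 105 and 115 bp before the start of the protein-coding transcripts. A peak at the most 5′ TSS of Col27a1 was called in animal 2 only, with a height of 0.523.

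The DNA under these 2 peaks, the strongest promoter peaks of the family, is shown as the part of the peak that both animals shared, in mm10, 5′ to 3′ on the strand of the gene. Capitals mark bases inside a deposited footprint, a short stretch protected from DNase I within an open site, in at least 1 animal. The Col1a1 stretch is chr11:94937121-94937280 on the plus strand and the Col27a1 stretch is chr4:63215241-63215400 on the plus strand, and neither overlaps an annotated exon.
Col1a1: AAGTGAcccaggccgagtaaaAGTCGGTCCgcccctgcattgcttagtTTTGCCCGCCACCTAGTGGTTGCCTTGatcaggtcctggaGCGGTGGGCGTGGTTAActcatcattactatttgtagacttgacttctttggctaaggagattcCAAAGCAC
Col27a1: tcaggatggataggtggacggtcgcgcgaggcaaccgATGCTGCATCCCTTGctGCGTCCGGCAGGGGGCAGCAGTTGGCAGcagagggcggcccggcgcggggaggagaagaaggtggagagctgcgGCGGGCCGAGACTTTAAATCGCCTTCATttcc

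The other genes of the fibrillar class had lower peaks or none. Col1a2, the second chain of type I collagen, had a height of 0.301 (animal 1) and 0.448 (animal 2), which averaged 0.374 ± 0.104 (SD, n = 2), from a peak without footprints that was centred 47 and 64 bp downstream of its nearest protein-coding start. Col3a1, the reticular fibre collagen that is abundant in spleen stroma, had a peak of 0.251 in animal 1 and none in animal 2. Of the type V genes, which start and limit the growth of type I fibrils, Col5a1 had 0.672, Col5a3 0.421 and Col5a2 0.312, all in animal 2 only. Col11a1, of cartilage fibrils, had 0.208 in animal 1 only. Col2a1 and Col11a2, of cartilage, and Col24a1, of developing bone, had no promoter peak in either animal.

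Type IV genes lie in head-to-head pairs that share a start region. The most 5′ TSS of Col4a1 and Col4a2, whose chains form the common basement membrane network, are 21 bp apart, and a single peak, chr8:11312701-11312920 in animal 2, covered both starts with a height of 0.351 in animal 1 and 0.625 in animal 2. It cannot be assigned to 1 of the pair. For Col4a1 the mean was 0.488 ± 0.194 (SD, n = 2). For Col4a2 the strongest peak of animal 1 was another one, with a height of 0.451 in an intron 93114 bp downstream, so its mean of 0.538 ± 0.123 (SD, n = 2) joins different peaks. Col4a5, whose loss causes X-linked Alport syndrome in humans, had 0.215 in animal 1 and 0.346 in animal 2, the lowest mean of all 15 at 0.281 ± 0.0929 (SD, n = 2). Its neighbour Col4a6, 1309 bp away on the opposite strand, had no promoter peak. Col4a3 and Col4a4, chains of the kidney glomerulus whose starts are 72 bp apart, had none in either animal. In animal 2 the authors' cut-rate file, which lists short intervals with a false discovery rate (FDR) under 0.05, gave an interval near these starts with an FDR of 0.044.

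Among the other collagens, Col15a1 and members of the transmembrane group were highest within 1 kb of a TSS, an order that changes with a 2 kb window. Col15a1, a multiplexin of vascular and muscle basement membrane zones, had a height of 1.98 (animal 1) and 1.59 (animal 2), which averaged 1.78 ± 0.275 (SD, n = 2), and was the only one of the 15 that was lower in animal 2. Its multiplexin relative Col18a1, whose C-terminal fragment is endostatin, had no promoter peak. Of the 4 transmembrane collagens, Col23a1 had 1.15 and 1.51, Col25a1 1.04 and 1.15, and Col13a1 0.509 and 1.02 in animals 1 and 2. The last, Col17a1 of the skin hemidesmosome, had 0.231 in animal 2 only. Their means were 1.33 ± 0.255 for Col23a1, 1.09 ± 0.0769 for Col25a1 and 0.763 ± 0.361 for Col13a1 (SD, n = 2 each). Col26a1, a short collagen described in testis and ovary, had 0.723 (animal 1) and 1.36 (animal 2), which averaged 1.04 ± 0.449 (SD, n = 2). With a window of 2 kb the means became 3.004 for Col26a1 and 2.75 for Col13a1, through peaks that the 1 kb window missed.

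The fibril-associated (FACIT) and beaded filament collagens were lower or not open. Of 9 FACIT genes, Col16a1 had 0.573 and 0.822, a mean of 0.697 ± 0.176 (SD, n = 2), at its first start site (chr4:130047721-130047940 in animal 2). Col14a1 had 0.287 in animal 1 and 0.339 in animal 2, but from peaks 141405 and 452 bp downstream of its most 5′ TSS, so these are different sites. A peak just outside the 1 kb window, at chr15:55306401-55306580 in animal 1 and 1260 and 1270 bp upstream of the most 5′ TSS, was present in both animals with 1.35 and 2.34. Col19a1 and Col22a1 each had 0.367 in animal 2 only, and Col9a1, Col9a2, Col9a3, Col12a1 and Col20a1 had no promoter peak. Of the 6 type VI genes, whose chains form beaded filaments around cells, Col6a2 had 0.573 and 0.733, a mean of 0.653 ± 0.113 (SD, n = 2), at chr10:76623321-76623520 in animal 2. Col6a4 had 0.408 and 0.455, a mean of 0.432 ± 0.0330 (SD, n = 2). Col6a5 had 0.344 and Col6a3 had 0.315, both in animal 1 only, and Col6a1 and Col6a6 had no promoter peak. The network collagen Col8a1, of vessel walls and the cornea, had 0.285 in animal 2 only, while Col8a2, Col10a1 of growth plate cartilage, the anchoring fibril gene Col7a1 and Col28a1 had none.

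**Figure D2:**
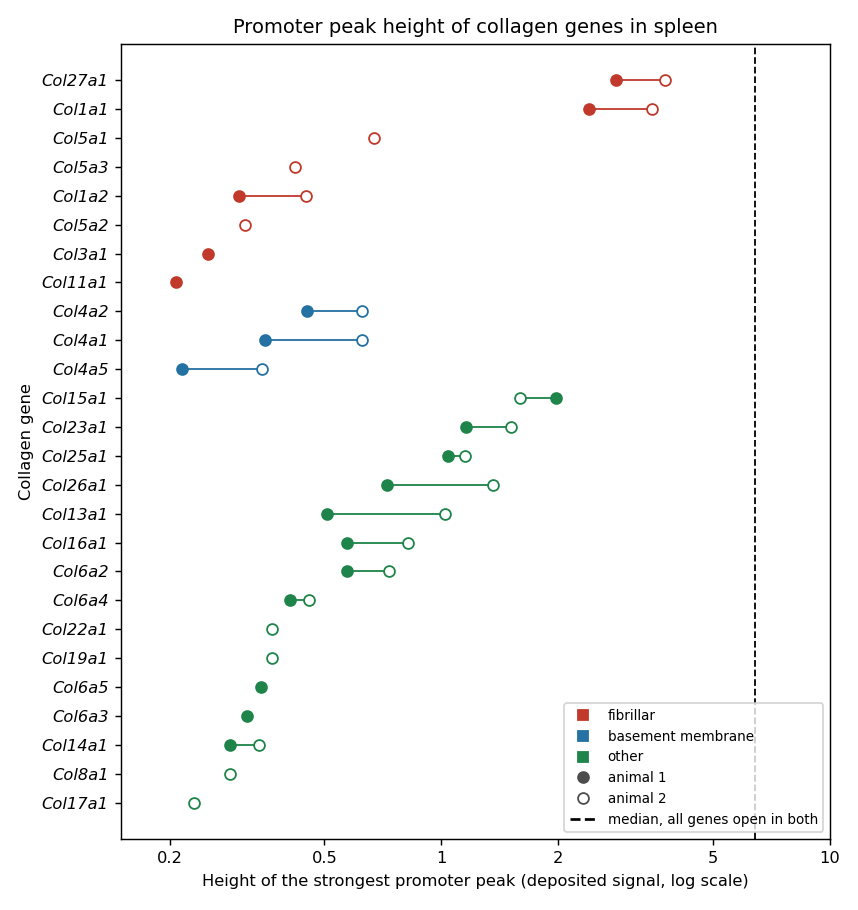
Height of the strongest promoter peak (deposited signal, log axis) of the 26 collagen genes with a promoter peak in at least 1 animal, coloured by class, with animal 1 as filled and animal 2 as open circles joined by a line. Every point lies left of the dashed line at 6.42, the median mean height of all genes open in both animals, and the peaks found in 1 animal only lie between 0.208 and 0.672.

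The peaks found in 1 animal only were among the faintest. Their heights ran from 0.208 to 0.672, with a median of 0.315. A listed cut-rate interval near a TSS was present for 1 (Col5a1) of the 25 collagen genes without a promoter peak in animal 1, against 2.65% of all genes that lacked such a peak there. In animal 2 it was present for 4 of 22 (Col4a3, Col4a4, Col6a3 and Col6a5), against 2.87% of all such genes. The Col4a3 and Col4a4 starts are so close that they share 1 region. Of the 15 genes open in both, 14 were higher in animal 2, and the median log2 ratio of animal 2 over animal 1 was 0.47. All genes open in both were also shifted, with a median log2 ratio of 0.27.

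Several of the strongest collagen peaks lay far from the most 5′ TSS of the gene. Among the 15 genes open in both animals, 6 (40.0%) had their strongest peak over 1 kb from the most 5′ TSS in both animals, against 12.8% of all genes open in both. Collagen genes are also long, with a median of 114 kb and 4 annotated start sites, against 17.4 kb and 3 for all genes, and the part of length in the difference was not tested. For Col25a1 and Col27a1 the most 5′ TSS is that of a non-coding transcript and the peak lay just before the protein-coding start. Over 1 kb from every protein-coding start in both animals were the peaks of 3 of the 15 genes (Col6a4, Col13a1 and Col26a1; 20%), against 4.41% of all genes open in both. This second count was chosen after seeing the data. The strongest Col13a1 peak lay 101098 and 101108 bp downstream of the most 5′ TSS and that of Col26a1 127309 and 127319 bp downstream, each in an intron near a non-coding transcript start. That of Col15a1 lay 95349 and 95309 bp downstream and that of Col25a1 49239 and 49229 bp downstream, 212 and 252 bp and 151 and 161 bp before the start of an annotated protein-coding transcript. That of Col6a4 lay 24917 and 24853 bp downstream. For Col6a4, Col13a1, Col15a1 and Col26a1 the promoter height is that of an internal site. By contrast Col16a1, Col23a1, Col6a2, Col1a2, Col4a1 and Col4a5 had their strongest peak within 1 kb of the first start, as did Col1a1 with its peak 966 and 976 bp inside the gene.

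**Figure D3:**
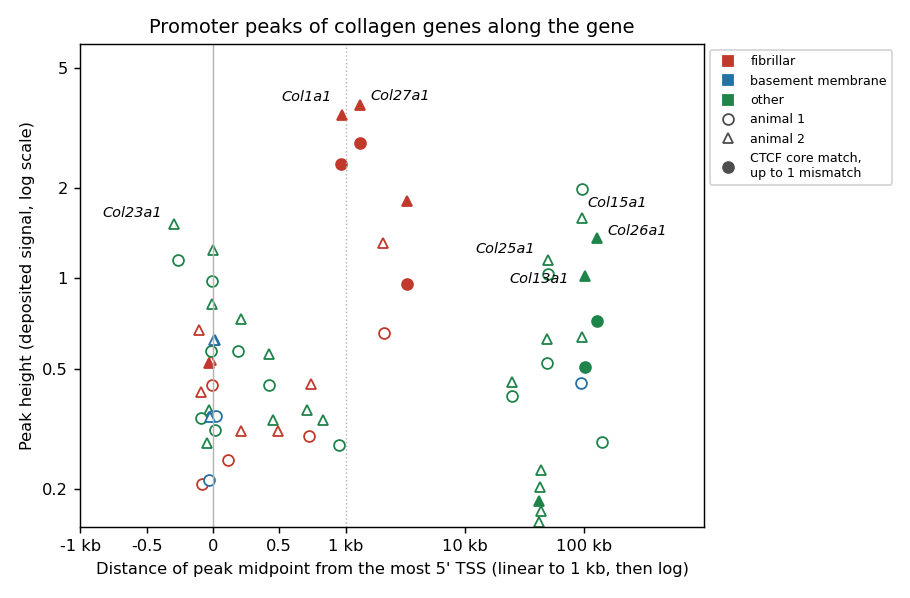
Distance of each promoter peak's midpoint from the most 5′ TSS of its gene (linear to 1 kb, then log) against its height (deposited signal, log axis), with animal 1 as circles and animal 2 as triangles, coloured by class, and filled where the peak holds a match to the CTCF core with at most 1 mismatch. The strongest peaks of Col1a1 and Col27a1 lie near the 1 kb line, and those of Col15a1, Col13a1, Col26a1 and Col25a1 lie far beyond it.

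The sequence under the strongest peaks of Col13a1, Col15a1, Col25a1 and Col26a1 shows what these open sites hold. Col23a1 is added as the example of a peak near the first start site. Its strongest peak was centred 260 bp (animal 1) and 290 bp (animal 2) upstream of that start. A lower peak of 0.981 and 1.24 covered the start itself and is not shown. The stretches are chr10:61877901-61878100 for Col13a1 and chr5:136755801-136755980 for Col26a1, both on the minus strand, and chr3:130180621-130180840 for Col25a1, chr4:47303381-47303580 for Col15a1 and chr11:51289561-51289720 for Col23a1 on the plus strand. All are mm10, 5′ to 3′ on the gene's strand, free of annotated exons, with footprints in capitals as above.
Col13a1: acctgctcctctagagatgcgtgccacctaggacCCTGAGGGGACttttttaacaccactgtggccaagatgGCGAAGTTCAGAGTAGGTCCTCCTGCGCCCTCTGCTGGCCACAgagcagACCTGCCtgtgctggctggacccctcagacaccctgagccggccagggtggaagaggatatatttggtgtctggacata
Col26a1: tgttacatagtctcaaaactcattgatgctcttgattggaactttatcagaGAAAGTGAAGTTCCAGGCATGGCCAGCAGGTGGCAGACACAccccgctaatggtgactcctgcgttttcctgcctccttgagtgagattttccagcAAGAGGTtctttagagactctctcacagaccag
Col25a1: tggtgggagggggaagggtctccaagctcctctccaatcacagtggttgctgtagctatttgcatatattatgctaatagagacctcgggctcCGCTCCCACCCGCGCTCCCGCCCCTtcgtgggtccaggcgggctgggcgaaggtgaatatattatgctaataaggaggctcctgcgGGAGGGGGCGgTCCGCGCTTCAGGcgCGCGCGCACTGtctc
Col15a1: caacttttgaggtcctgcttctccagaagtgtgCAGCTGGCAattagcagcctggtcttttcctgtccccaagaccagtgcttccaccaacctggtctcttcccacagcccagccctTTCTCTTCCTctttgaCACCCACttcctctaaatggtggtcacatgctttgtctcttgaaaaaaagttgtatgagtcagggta
Col23a1: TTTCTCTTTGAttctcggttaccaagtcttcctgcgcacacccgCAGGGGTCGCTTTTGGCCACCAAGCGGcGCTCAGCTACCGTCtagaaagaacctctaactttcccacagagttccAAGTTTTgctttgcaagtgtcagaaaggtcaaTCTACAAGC

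The footprints of several of these peaks overlap the core of the CTCF consensus, some only in part. CTCF is a zinc finger protein that binds insulators and chromatin loop anchors in nearly all cell types. The motif was chosen after the sequences had been seen, and the 12-base core was searched on both strands. An exact match overlapped a footprint of each animal in the strongest peaks of Col1a1 (chr11:94937176-94937187), Col13a1 (chr10:61877991-61878002) and Col26a1 (chr5:136755896-136755907). The strongest Col27a1 peak held 2 stretches with 1 mismatch each that overlapped a footprint, and the Col1a1 peak 3246 bp downstream held another. An exact match was thus in 3 of 19 strongest collagen promoter peaks in animal 1 (15.8%) and 3 of 21 in animal 2 (14.3%), against 2.17% and 2.26% of the strongest promoter peaks of all genes. Where the strongest peak lay over 1 kb from the most 5′ TSS, 2 of 8 and 2 of 7 collagen peaks held it, against 5.43% and 6.30% of such peaks of all genes. With up to 1 mismatch allowed, 4 of 19 and 4 of 21 of the strongest collagen promoter peaks held the core, against 9.45% and 9.62% of those of all genes. Among distal collagen peaks outside other promoters the exact core was in 8.08% and 5.83%, against 6.72% and 6.93% of all peaks in the lists. With up to 1 mismatch it was in 41.4% and 35.8% of those distal collagen peaks, against 20.27% and 21.05% of all peaks. All peaks include promoter peaks, and the strongest promoter peaks held the core less often. For both distal comparisons the 2 sets are thus unlike, and the difference was not tested. A match to these letters is a description of the sequence and does not show what was bound.

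The sequence class of the first promoter went with opening in the genome and less so among the collagens. Over the 250 bases before to 50 after the most 5′ TSS, 11 of 44 collagen genes had a CpG observed over expected ratio of at least 0.6, the range of CpG islands. Of those 11, 3 (Col4a1, Col4a2 and Col23a1) were open within 1 kb of that TSS in both animals, against 87.5% of all genes with such promoters. The other 8 were Col2a1, Col5a1, Col5a3, Col8a2, Col12a1, Col13a1, Col15a1 and Col27a1, the last with its window at the retained-intron start. Of the 33 collagen genes under that ratio, 5 were open there in both animals (Col1a1, Col1a2, Col4a5, Col6a2 and Col16a1), against 29.1% of all such genes. The count for Col1a1 rests in part on its peak 966 bp inside the gene, although a lower peak covered its TSS as well. Searched on both strands of that window, the TATA box TATAAA was in 6 of 44 collagen promoters (13.6%), against 12.7% of all promoters. CCAAT, the site of the factor NF-Y, was in 17 (38.6%), against 39.0%, and GGGCGG, the site of Sp1, in 23 (52.3%), against 43.0%. TGANTCA, the AP-1 site, was in 1 of 44, GGAATG, the TEAD site, in 7, TGTGGT, the RUNX site, in 4 and the CArG box of serum response factor in 1, against 6.91%, 13.5%, 15.3% and 1.48% of all promoters.

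Collagen promoter peaks held fewer footprints per peak than promoter peaks at large. In animal 1, 42 footprints lay in 26 collagen promoter peaks, 1.62 per peak against 2.80 over all promoter peaks. In animal 2, 62 lay in 35 peaks, 1.77 per peak against 2.76 over all. Of the collagen footprints, 21 of 42 in animal 1 and 21 of 62 in animal 2 overlapped a footprint of the other animal, against 69.2% and 64.9% over all promoter peaks. The footprints of Col1a1, Col27a1 and Col26a1 that overlapped a match to the CTCF core were among those that recurred. The strongest peak held a footprint for 10 of the 15 collagen genes in animal 1 and 14 in animal 2, against 97.6% and 98.4% of all genes open in both. Among the collagen genes with a mean height under 1, 4 of 9 strongest peaks held a footprint in animal 1 and 8 of 9 in animal 2, against 81.5% and 88.2% of all genes under that height. GGGCGG was in 4.76% and 6.45% of the collagen footprints widened by 5 bp, against 16.9% and 17.2% of all promoter footprints.

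Peaks farther out were counted where their midpoint lay over 1 kb and up to 50 kb from the most 5′ TSS and over 1 kb from any start of the gene. The collagen genes had a median of 2 such distal peaks in animal 1 and 3 in animal 2, against 4 and 4 for all genes. Together they had 145 and 173 distal peaks, of which 45 and 51 lay at the promoter of another gene. Of the distal peaks 82.1% in animal 1 and 69.4% in animal 2 were found in the other animal. Inside the collagen genes there was a median of 1.95 and 1.76 peaks per 100 kb, against 2.82 and 2.89 for all genes. This count includes promoter peaks, which add less per 100 kb in a long gene. The median length was 114 kb for collagen genes against 17.4 kb for all genes. The 2 densities are thus unlike, and the part of length was not tested. The 7 genes Col3a1, Col4a3, Col4a4, Col5a2, Col8a1, Col11a1 and Col24a1 had no distal peak in either animal.

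For several genes a distal site was higher than any of the gene's promoter peaks. The highest one near Col1a1, at chr11:94979001-94979200, lay 42876 bp downstream of its TSS, beyond the gene's end, with a height of 8.08 in animal 1 and 8.96 in animal 2 and 5 footprints in each. No collagen promoter peak was as high. Inside the Col15a1 gene, in an intron 43039 and 42999 bp downstream of the most 5′ TSS, a peak had 5.18 and 6.45, and another at 47689 bp had 2.70 and 4.24. Col16a1 had an intronic peak 39700 bp downstream of 4.20 and 5.44, and Col26a1 had one 19059 bp downstream of 3.42 and 4.22. At Col13a1 the only distal peak lay 1522 bp upstream of the most 5′ TSS, just beyond the promoter window, with 1.85 and 3.65, above its internal promoter peak in both animals. Col27a1 had 1.497 and 1.46 at 8264 and 8234 bp upstream, and Col25a1 had 0.387 and 0.475 at 27808 and 27815 bp upstream. The strongest near Col23a1, of 17.5 and 21.1, was the promoter of Clk4 and BC049762. Near Col6a2 and Col4a2 the strongest distal peaks were at different places in the 2 animals and had at most 0.394.

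Genes without a promoter peak in either animal differed widely in the number of distal peaks. Col11a2, which sits in the major histocompatibility complex, had 17 and 21 distal peaks, of which 11 and 15 were at other promoters, with H2-K1 at 18.1 and 14.8. Col8a2 had 14 and 16, and its highest outside other promoters, at 26793 and 26783 bp upstream, had 5.57 and 6.52. Col9a2 had 14 in each animal, Col7a1 7 in each and Col9a3 6 in each. Col20a1 had 4 and 6, Col12a1 5 and 3, Col6a6 4 in each and Col2a1 3 in each. Col9a1 had 2 and 3, Col18a1 2 in each, Col10a1 and Col4a6 1 and 2 each, and Col28a1 1 in each. Col6a1 had 2 and 7, of which 5 in animal 2 were faint peaks of 0.0951 to 0.183 at 38052 to 39732 bp upstream that animal 1 lacked. In an intron of Col18a1, 35798 bp downstream, a peak had 2.56 in animal 1 and 2.89 in animal 2.

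**Figure D4:**
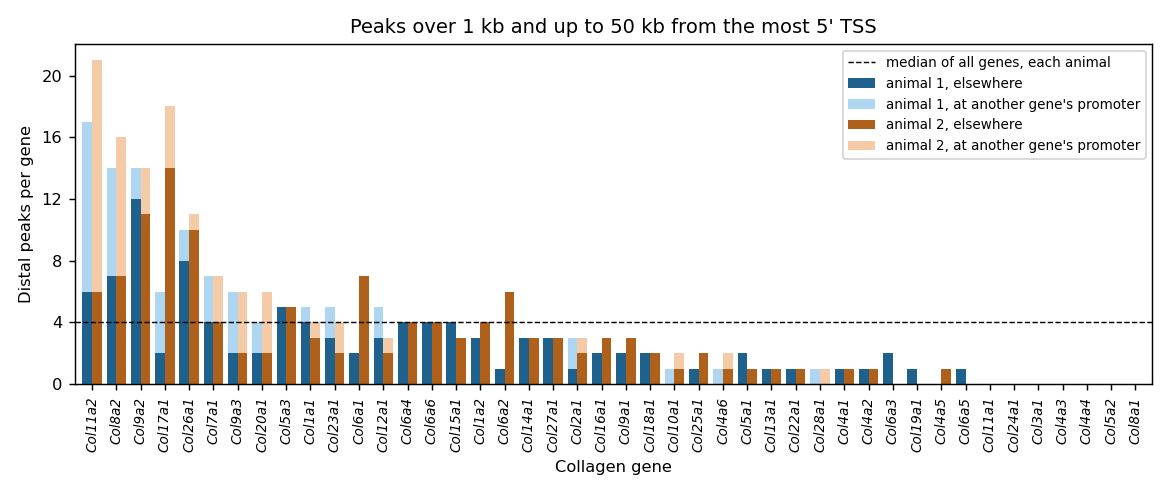
Number of distal peaks per collagen gene, over 1 kb and up to 50 kb from the most 5′ TSS, in animal 1 (blue) and animal 2 (orange), split into those at another gene's promoter (pale) and elsewhere (dark). The dashed line marks 4, the median of all genes in each animal, and Col17a1 differs most between the animals, with 6 in animal 1 and 18 in animal 2.

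A dense run of faint peaks set the Col17a1 values of animal 2. At chr19:47643431-47651830, at and beyond the 3′ end of the gene, animal 2 had 17 peaks within 8399 bp with heights of 0.0611 to 0.272, where animal 1 had 0. Runs of at least 10 peaks within 10 kb, all under a height of 0.3, numbered 26 in animal 2 and 5 in animal 1, or 0.565% and 0.0871% of the peaks. The strongest Col17a1 promoter peak is part of that run, so its call in animal 2 rests on it. All 5 Col17a1 promoter peaks of animal 2, at 0.156 to 0.231, also overlap the shorter list. The higher Col27a1 peak of 0.659 in animal 1 does not. All 6 distal peaks of Col6a2 in animal 2 were likewise faint, at 0.0815 to 0.170, and absent from animal 1. What these runs are was not tested.

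Most genes of the machinery that makes collagen were open. Of 17 genes for biosynthesis and folding, 16 were open in both animals, against 59.8% of all genes. Their median height was 6.53, against 6.42 for all genes open in both. Highest were P3h1, a collagen prolyl 3-hydroxylase, at 19.1 ± 0.614 and P4hb, a subunit of prolyl 4-hydroxylase, at 18.2 ± 1.69 (SD, n = 2 each). P4hb and several others also act on proteins other than collagen. Serpinh1, the collagen-specific chaperone HSP47, had only 0.616 in animal 1 and 0.747 in animal 2, within the range of the collagens. The means of Plod2 (0.589), P4ha3 (0.418) and Colgalt2 (0.402) were lower still. P3h2 had a peak of 0.315 in animal 1 only. The remaining genes of this list were higher than Serpinh1. Of 12 genes for extracellular processing and crosslinking, 4 were open in both (33.3%), led by Loxl3 at 11.4 ± 1.06 and Bmp1 at 1.23 ± 0.308 (SD, n = 2 each). The Loxl3 height came from another start. Within 1 kb of its most 5′ TSS, Loxl3 had 2.49 in animal 1 and 2.70 in animal 2. Lox, the lysyl oxidase, was open in animal 2 only, and Tll1, Adamts2, Adamts14, Pcolce, Pcolce2, Loxl1 and Loxl2 had no promoter peak.

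For 7 of 10 collagen receptor genes the promoter was open in both animals, near the 59.8% of all genes. The integrin genes Itgb1 at 2.76 ± 0.655 and Itga2 at 2.34 ± 0.409 were highest (SD, n = 2 each), while Itga11 and the platelet receptor Gp6 had no peak. Of 9 degradation genes found in the annotation 3 were open in both, led by the inhibitor Timp2 at 3.33 ± 0.889 and the gelatinase Mmp9 at 2.39 ± 0.851 (SD, n = 2 each). The Mmp9 height came from another start, as no peak lay within 1 kb of its most 5′ TSS in either animal. Mmp2, Mmp8, Mmp13, Mmp14, Ctsk and Timp1 had no promoter peak. Of 16 partner matrix genes 6 were open in both, led by Hspg2 (perlecan) at 7.08 ± 1.64 and Lamc1 (a laminin chain) at 4.63 ± 0.411 (SD, n = 2 each). Dcn, Lum, Bgn, Fmod, Lama4, Lamb1, Nid1 and Tnxb had none. Together 36 of 64 pathway genes (56.3%) were open in both animals, against 59.8% of all genes.

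Counted at any TSS, the genes of the splenic stroma and endothelium marker lists were open about as often as genes at large, with lower median heights. Whether some of these genes are open in other cells of the spleen was not tested. Of 16 splenic stroma markers 9 (56.3%) were open in both animals, against 59.8% of all genes, their median height was 1.03, and Madcam1 and Acta2 were highest at 2.31 ± 0.790 and 2.03 ± 0.0816 (SD, n = 2 each). Pdgfrb, Dcn, Lum, Ccl19, Ccl21a, Cxcl13 and Nkx2-5 had no promoter peak. Of 10 endothelial markers 6 were open in both (60%), with a median of 1.70, against 6.42 for all genes open in both. Tie1 and Emcn had a peak in animal 1 only, and Tek and Stab2 had none. Among these 6, Cdh5, Vwf and Egfl7 had no peak within 1 kb of the most 5′ TSS in either animal. That left Pecam1, Kdr and Eng open there in both animals, where 55.0% of all genes were open. All 10 B cell markers were open in both, with a median of 7.16, as were 8 of 9 T cell markers with a median of 1.55 and 6 of 10 macrophage markers with a median of 1.29. Of 10 markers of hepatocytes, the liver's main cell type, 1 was open in both. B and T cell markers were thus open more often than hepatocyte markers in this tissue labelled as spleen. The T cell and macrophage medians were under that of all genes open in both. The part of these stromal and endothelial levels in the collagen heights was not tested.

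**Figure D5:**
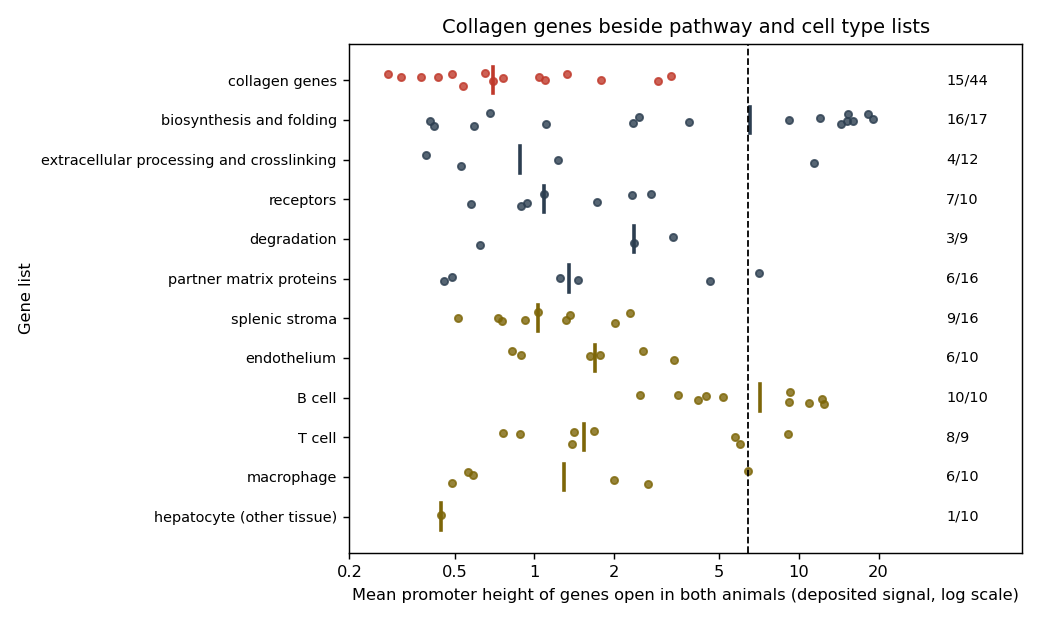
Mean promoter height (deposited signal, log axis) of genes open in both animals, for the collagen genes, the 5 lists of collagen pathway genes and the 6 lists of cell type markers. Vertical ticks are list medians, the numbers at the right give genes open in both of genes found, and the dashed line is the median of all open genes at 6.42, which only the biosynthesis and B cell medians exceed.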

How the data were processed

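The deposited file listings name mm10 as the build and derive every file from the reads of 1 library. The aligner and the callers with their cutoffs were not given in the sources used here. For each library the authors deposited a longer and a shorter peak list with a height, a signal of cut density that was a whole multiple of 0.00716 (animal 1) or 0.00679 (animal 2), within 0.01 of a step. If a step is 1 cut per M cuts, the libraries held 139.6 and 147.3 M cuts. That depth is inferred, so no counting interval is given. The deposited footprints carry a constant 0.01 as p-value, and the deposited cut-rate intervals an FDR (q-value), listed only under 0.05. The longer lists were used, with 79246 and 77231 peaks.

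Peaks were assigned to GENCODE M21 genes with Python 3.11.15, numpy 2.4.6, pandas 2.3.3 and pysam 0.24.0, and sequence was read from GRCm38.p6, which has the sequence of mm10. The reference carries C57BL/6J alleles only, and the effect on CAST/EiJ reads was not tested. A peak may count for several genes. The assignment was checked on simulated peaks. No test was made, since there is 1 group. Members, lists and motifs were chosen with earlier results of these data known. Every collagen gene is named. Of each pathway list the highest 2 and those without a peak are named. Serpinh1, Plod2, P4ha3, Colgalt2, P3h2 and Lox are named beyond that rule. Ddr2, Fbn1 and Lamb2 had, like Lox and P3h2, a peak in 1 animal only.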

Additional observations from a re-analysis of the deposited data

How the results depend on the processing

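The 15 collagen genes open in both animals became 8 with the most 5′ TSS only and 5 with the higher 50% of peaks. Of all genes 55.0% were open with the most 5′ TSS only, and no share of all genes is given for the higher 50%. Leaving out an animal gave 19 and 22, against 61.4% and 62.6% of all genes. The collagens outside the fibrillar and basement membrane classes (9) gave 3 and 3 under these settings, and 11 and 13 with an animal left out. Fibrillar collagens (3) gave 5 and 6 when an animal was left out. Basement membrane collagens (3) gave 1 in the shorter list, 0 in the higher 50% and 1 without peaks at another gene's promoter, as Col4a1 and Col4a2 share a peak, and 3 with either animal left out. The median height (0.697) was 1.09 with a 2 kb window, 1.07 in the shorter list and 1.78 in the higher 50%, and 0.451 and 0.625 with an animal left out. These medians are over other sets of genes: 19, 10 and 5, then the 19 and 22 open in the animal kept. The higher 50% drops genes with low peaks by construction. For the same 15 genes the medians were 0.573 in animal 1 and 0.822 in animal 2. The cause of the other moves was not tested. Distal peaks per gene (a mean of the animals' medians of 2.5) were 1.0 within 25 kb, 4.75 within 100 kb, 1.25 in the shorter list and 1.0 in the higher 50%, and 2 and 3 with an animal left out. Footprints (a mean of 52) were 42 and 62 with an animal left out. Of 91 single-gene heights recomputed with both animals, 86 stayed within 1 SD between the animals and 5 were higher, all with the 2 kb window: 3.004 for Col26a1, 2.75 for Col13a1, 1.84 for Col14a1, 1.55 for Col16a1 and 0.682 for Col4a1. Settings in which a gene lost its promoter peak in an animal gave no height and are not among the 91. The height is that of the strongest peak, so leaving out weaker peaks cannot change it. The 86 are therefore no measure of robustness. Heights from 1 animal were not counted, since with n = 2 they lie a fixed share of the SD away. Leaving out peaks under 0.3, chosen after seeing the data, gave 13 genes open in both and a distal median of 2 per gene. No share of all genes is given for that setting. No paired analysis was possible because there is only 1 group. Faint peaks limit the counts: those found in 1 animal only stood at or under 0.672.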
